A study of Mus musculus with 8 samples.

Results

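Semaphorins, plexins and neuropilins form a ligand and receptor system, and every gene of the deposited table whose symbol names a numbered semaphorin (Sema3a to Sema7a), a plexin of the A, B, C or D group, or neuropilin 1 or 2 was taken as a member. The rule found 31 genes among the 23337 in the table, namely 20 semaphorins, 9 plexins and 2 neuropilins. RNA came from whole kidneys of mouse embryos at stage E13.5 on a mixed C57BL/6 background, with 4 libraries per group. Mutants were Foxd1Cre;Smo(flox/-): Cre under Foxd1 acts in the progenitors of the renal stroma, and of their Smo copies 1 is floxed and the other null. Smo encodes Smoothened, the transducer of hedgehog signals. Control kidneys were Smo(flox/+), and the labels name no Cre for them. The groups therefore differ in the Cre allele and in a Smo copy missing from every cell as well as in the stromal loss of Smo, and each difference belongs to the whole genotype. Both groups carry a floxed Smo copy.

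Semaphorins are extracellular guidance proteins first described for turning axons. Plexins are their transmembrane receptors, whose intracellular part acts on small GTPases and so loosens adhesion and the actin skeleton. Class 3 semaphorins are secreted, and most of them need a neuropilin to hold them on an A-type plexin. Semaphorins of classes 4, 5 and 6 are membrane proteins, and Sema7a is anchored by a lipid. In the developing kidney the system is known from ureteric bud branching, podocytes and the growth of vessels, and neuropilins also bind vascular endothelial growth factors.

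Libraries held 10288191 to 13494079 reads in genes. Levels are the deposited read counts, each divided by a size factor of its library, and are called normalised counts. The 13692 genes with a mean normalised count of at least 10 were tested, and 30 of the 31 members were among them. Each log2 fold change compares mutants with controls after 1 was added to the normalised counts. Adjusted p-values come from limma (Benjamini-Hochberg over all tested genes), and a gene was called where its value was under 0.05. Smo, the targeted gene, lay between 2152 and 2294 in the controls and between 509 and 553 in the mutants, so each library matched its label. Kidney markers were present in every library, with all 10 nephron progenitor genes and all 10 ureteric bud genes of the lists above the filter. Skeletal muscle is tissue outside the kidney, and its listed transcripts were highest in control 2 and mutant 2. The 10 genes summed there to 3901 and 2831 normalised counts, against 727 to 1196 in the other 6 libraries. Des made up the larger part of the sum in each of these 6, such as 621 of 727 in control 4. Its level was not raised in control 2, at 675 against 805 in control 3. Myh3 of the same list was at 1105 in control 2 and 694 in mutant 2, against 3.36 to 169 in the other 6. Liver transcripts were highest in control 1, where the 6 listed genes summed to 720 normalised counts, against 11.3 to 143 in every other library. The labels do not say that the samples came from separate embryos, and the spread behind the p-values may be technical. In whole organs, fewer cells of a type and less RNA per cell cannot be told apart.

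Among the members, 1 of 30 tested genes was higher in the mutants and none was lower. The gene was Plxna4, which encodes plexin A4, a receptor for class 6 semaphorins and, with a neuropilin, for Sema3a. Of all tested genes 0.570% were called, 0.124% higher and 0.446% lower. The median log2 fold change was -0.04 over the 30 members and 0.0037 over all genes tested. Unadjusted p-values under 0.05 were reached by 10 members, 7 with negative and 3 with positive fold changes, where 8.70% of all genes tested did so. These counts changed when single libraries were left out, although fewer libraries also make a small p harder to reach. Without control 3, mutant 2 or mutant 3 they were 3 negative and 2 positive, and without control 1 or control 2 they were 4 and 3. Leaving out mutant 1 gave 5 and 3, and leaving out control 4 or mutant 4 gave 8 and 3. Without controls 1 and 2 together the balance turned, with 2 negative and 4 positive, as it did without control 2 and mutant 2, with 2 negative and 3 positive. Groups did not overlap for 3 members, namely Plxna4 and Sema4c with mutants above and Sema3d with mutants below, and 5.31% of all genes tested separated in this way. DESeq2 on the recovered reads called 1 member lower, Sema3d.

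**Figure D1:**
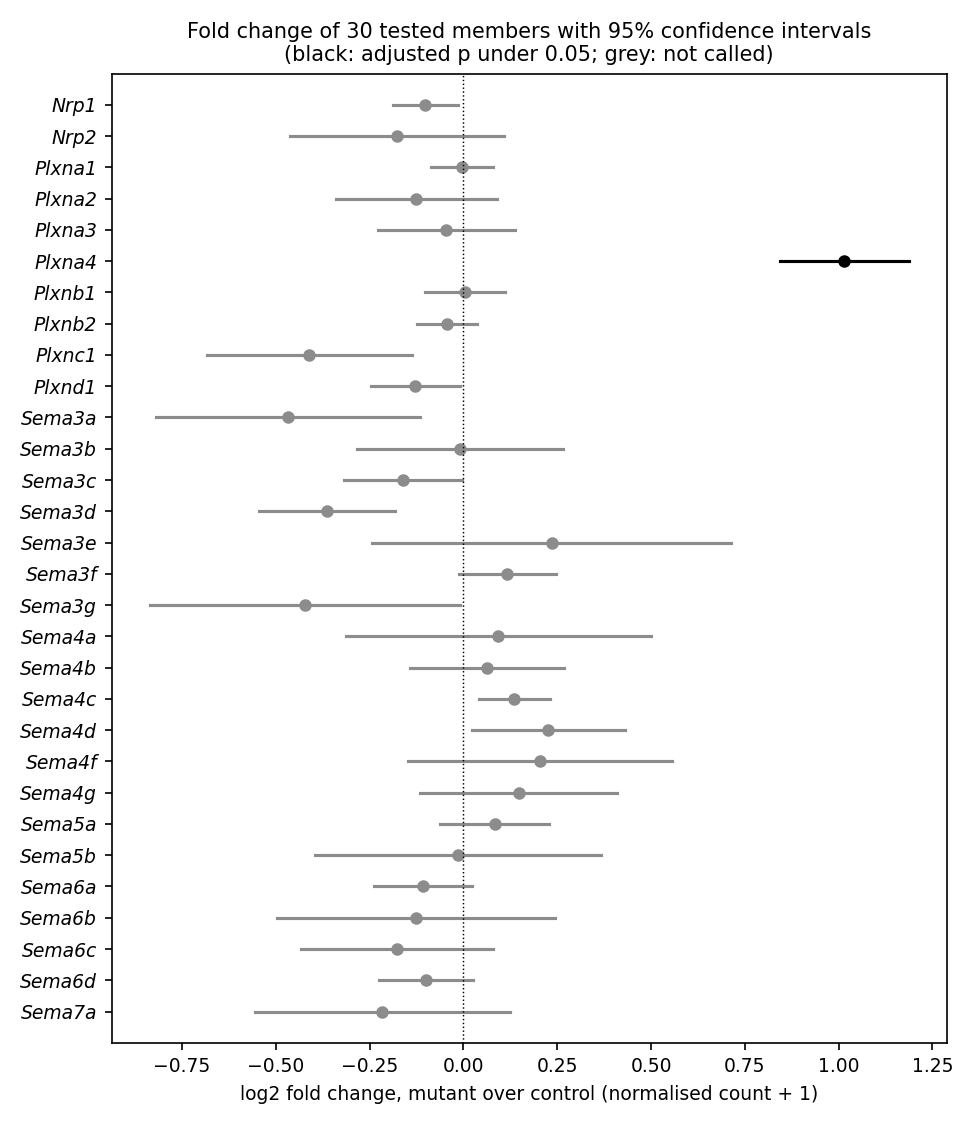
Points are log2 fold changes of mutant over control for the 30 tested members and lines are 95% confidence intervals from limma. Plxna4 stands at 1.02 in black, while the other members lie between -0.47 and 0.23 and are drawn in grey because none of them was called.

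Plxna4 is the gene on chromosome 6 from 32144543 to 32588192 of GRCm38, on the minus strand. Its normalised counts in controls 1 to 4 were 265, 274, 272 and 340.3. In mutants 1 to 4 they were 581, 553, 591 and 595. All mutant libraries lay above all control libraries, with 553 the lowest mutant and 340.3 the highest control value. Means were 288 ± 35.3 and 580 ± 19.2 (SD, n = 4 each), a 2.02-fold difference (log2 fold change 1.02, SE 0.078, 95% confidence interval 0.84 to 1.19, adjusted p = 0.00028 by limma). By unadjusted p it ranked 2 of the 13692 genes tested. An exact two-sided permutation test of the group means gave p = 0.0286, the smallest that 70 arrangements allow. The call held in each of 18 alternative fits, among them edgeR's quasi-likelihood test (adjusted p = 0.000328) and all 8 fits that left out 1 library (log2 fold changes 0.98 to 1.10, adjusted p up to 0.0037 by limma). The authors' deposited table gave it an adjusted p of 2.36e-26, and Plxna4 was the single member under 0.05 there.

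Plxna4 is a neighbour of the targeted gene Smo in the genome, and the part of this position in its level was not tested. Both lie on chromosome 6, with 2.38 Mb between their nearest ends. The null Smo copy was present in mutants only, so the genotype at Smo and any sequence difference carried along with that copy cannot be told apart for a neighbour. Of 45 tested genes within 5 Mb of Smo, leaving out Smo itself, Plxna4 was the only gene called, log2 fold changes of the others ran from -0.95 to 0.53, and the median was -0.04. Groups did not overlap for 3 of the 45, where 5.31% of all genes tested separated in this way. Besides Plxna4 these were Ahcyl2, 0.007 Mb from Smo (log2 fold change -0.16, adjusted p = 0.303 by limma), and Grm8, a glutamate receptor gene (log2 fold change -0.95, adjusted p = 0.280 by limma), both with mutants below and both named after their values were seen. On the opposite strand Plxna4os3, an antisense transcript, shares 110 exonic bases with Plxna4 (0.78% of its exon sequence). The name of the deposited data holds "Unstr", which may stand for unstranded counting, and reads of such shared bases could then not be assigned to either gene.

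Markers of other cell types were read beside the rise of Plxna4. Neuronal transcripts, which could mark nerve tissue that expresses A-type plexins, summed to 415 to 528 normalised counts over 11 genes in the controls and to 458 to 534 in the mutants, which overlap. Of these 11 neuronal genes 7 were below the filter, and Th and Stmn3 were at 0 in at least 1 library. Among the 4 tested, Elavl4 had a positive fold change (0.25 on the log2 scale, adjusted p = 0.545 by limma), 3 had negative ones, and none was called. Glia and neural crest transcripts over 8 genes summed to 1023 to 1177 and 1045 to 1253. Of the 4 tested there 2 had positive and 2 negative fold changes, and none was called. Nephron progenitor transcripts moved with genotype, from 9916 to 11453 over 10 genes in the controls and from 12433 to 13208 in the mutants, with 2 of 10 called higher. Ureteric bud transcripts summed to 6221 to 8413 and 6951 to 9349 with none of 10 called. Of these 10 genes 8 had positive and 2 negative fold changes, with a median of 0.16 on the log2 scale. An unadjusted p under 0.05 by limma was reached by 5 of them and by 6 of the 10 nephron progenitor genes, against 8.70% of all genes tested. Renal stroma transcripts summed to 28862 to 36968 and 25331 to 30763 with 1 of 10 called lower. That gene was Foxd1 (log2 fold change -1.29, adjusted p = 0.0251 by limma). Only the mutant labels name Foxd1Cre, so the level of Foxd1 and the Cre allele cannot be told apart. Of the 10 stroma genes 7 had negative and 3 had positive fold changes. The part of these compartments in the level of Plxna4 was not tested.

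None of the other 3 A-type plexins was called. Plxna1, a co-receptor of class 3 semaphorins and the most abundant A-type plexin per length here, stood at 2168, 2083, 2112 and 2262 in controls 1 to 4 and at 2091, 2233, 2103 and 2176 in mutants 1 to 4. These values overlap throughout, and the 95% confidence interval of the log2 fold change ran from -0.09 to 0.08 (adjusted p = 0.988 by limma). For Plxna2, a receptor of Sema6a, levels were 554 ± 53.6 and 510 ± 72.3 (log2 fold change -0.13, interval -0.34 to 0.09). X-linked Plxna3, which pairs with neuropilin 2 for Sema3f, was at 589 ± 53.5 and 572 ± 61.6 (log2 fold change -0.05, interval -0.23 to 0.14). The signs of Plxna1 and Plxna3 changed when control 4 was left out (0.020 and 0.0072), and that of Plxna1 also without mutant 1 (0.0098) or mutant 3 (0.0072).

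Within each library the makeup of the A-type plexins shifted. Levels of different genes were compared per kb of merged exon sequence from GENCODE vM21, since a longer transcript gives more reads. Plxna4 made up 5.20%, 5.46%, 5.38% and 6.23% of the summed A-type signal per kb in controls 1 to 4. Its share was 11.2%, 10.3%, 11.0% and 10.7% in mutants 1 to 4, and the groups did not overlap. Plxna1 remained the main transcript, with 65.2% ± 0.853 in controls and 62.4% ± 1.86 in mutants (SD, n = 4 each). The log2 ratio of Plxna4 to the sum of the other A-type plexins was -4.09 ± 0.121 in controls and -3.05 ± 0.057 in mutants (SD, n = 4 each). This is a difference of 1.04 (exact two-sided permutation p = 0.0286, the smallest possible). Plxna4 alone already separated the groups, and the summed signal per kb of the others was 345 ± 12.4 in controls and 340 ± 9.63 in mutants. The ratio therefore restates the difference in Plxna4 and is no separate evidence of a shift. Against Plxna1, Plxna2 or Plxna3 alone the difference was 1.02, 1.14 and 1.06. Summed over the family, the A-type signal per kb was 366 ± 14.8 in controls and 381 ± 10.02 in mutants.

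**Figure D2:**
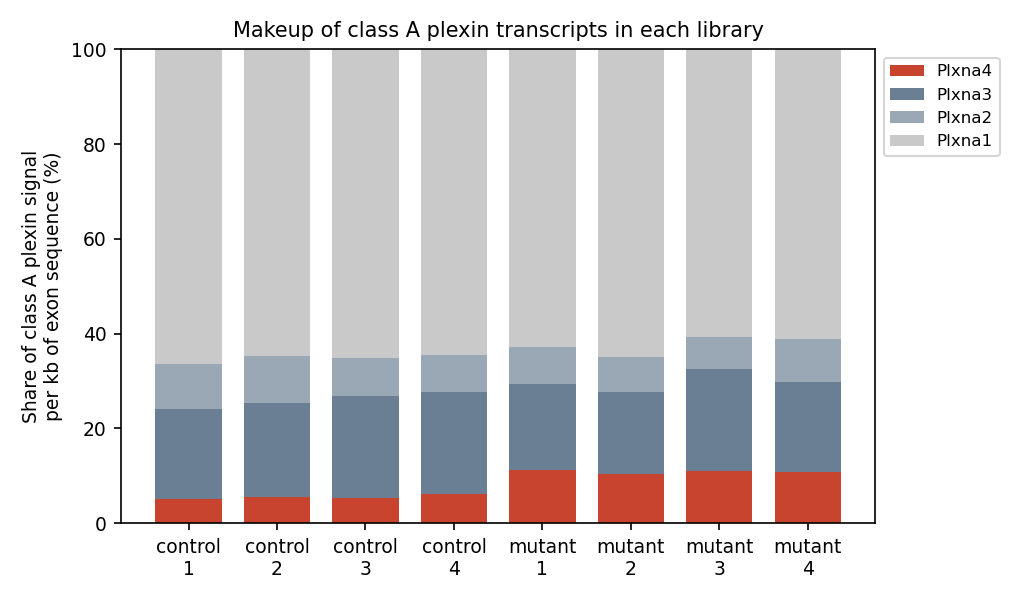
Each bar is a library and shows the share, in percent, of the summed A-type plexin signal per kb of exon sequence that came from each gene. The Plxna4 segment spans 5.20% to 6.23% in controls and 10.3% to 11.2% in mutants, above which Plxna3, Plxna2 and Plxna1 are stacked.

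The other plexins were not called. Plxnc1 encodes the receptor of Sema7a and stood at 277, 328, 248 and 232 in controls 1 to 4 and at 220, 182, 176 and 237 in mutants 1 to 4. Mutant 4 lay above control 4, so the groups overlapped, and the log2 fold change was -0.41 (SE 0.124, adjusted p = 0.252 by limma). Plxnd1, an endothelial receptor that binds Sema3e without a neuropilin, was at 2833 ± 190.4 and 2592 ± 154 (SD, n = 4 each) and did not pass (log2 fold change -0.13, SE 0.054, adjusted p = 0.517 by limma). Plxnb1, the receptor of Sema4d, and Plxnb2, a receptor of class 4 semaphorins in epithelia, had intervals of the log2 fold change from -0.10 to 0.11 and from -0.12 to 0.04. Plxnb3, a receptor of Sema5a on the X chromosome, had 0 to 3 reads per library and was not tested.

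Both neuropilins had negative fold changes without passing the test. Nrp1, the co-receptor for Sema3a and for vascular endothelial growth factor, was at 2733, 2733, 2815 and 2562 in the controls and at 2506, 2480.2, 2454 and 2668 in the mutants. Mutant 4 lay above control 4 and below the other 3 controls (log2 fold change -0.10, SE 0.039, adjusted p = 0.450 by limma). Nrp2, the co-receptor for Sema3f, varied more between libraries, from 491 to 715 in controls and from 393 to 550 in mutants (log2 fold change -0.18, interval -0.46 to 0.11), and its sign changed without controls 1 and 2 (0.0016).

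Of the 7 secreted class 3 semaphorins none was called, 5 had negative and 2 positive fold changes, and 4 had an unadjusted p under 0.05, all with negative fold changes. Background for that threshold is 5.17% of all tested genes on the negative side. Sema3d, a secreted cue known from neural crest and vessel patterning, was at 1537, 1435, 1822 and 1407 in controls 1 to 4. In mutants 1 to 4 it was at 1080.01, 1158, 1285 and 1287. Every mutant was below every control, by 1287 against 1407 at the closest, and the mutant mean was 77.6% of the control mean. The log2 fold change was -0.36 (SE 0.082, 95% confidence interval -0.54 to -0.18, adjusted p = 0.106 by limma). DESeq2 on the recovered reads gave Sema3d an adjusted p of 0.00309 and edgeR 0.106, while the authors' deposited table gave 0.114. Without control 4 it passed limma's threshold (adjusted p = 0.0401), and in the other fits that left out 1 library the adjusted p was 0.0967 to 0.268.

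Sema3a, the founding repellent of the class and a known brake on ureteric branching, ranged widely among controls, at 873, 937, 718 and 511 in controls 1 to 4. Mutants 1 to 4 had 597, 576, 456 and 523. Controls 1 to 3 were above all mutants, and control 4 was below 3 of them. Its log2 fold change of -0.47 was the most negative of any member (SE 0.161, adjusted p = 0.353 by limma). The value rested on which controls were used, since it was -0.64 with an adjusted p of 0.0137 without control 4 and -0.18 with an adjusted p of 0.747 without controls 1 and 2.

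Sema3c, which guides cells of the heart's outflow tract, and Sema3g, a semaphorin of arterial endothelium, followed the same order of controls. Sema3c was at 2235, 2280.4, 2068 and 1788 in controls 1 to 4 and between 1748 and 1969 in mutants (log2 fold change -0.16, adjusted p = 0.558 by limma). Sema3g was at 129, 139, 123 and 77.1 in controls 1 to 4 and between 67.2 and 103 in mutants (log2 fold change -0.42, adjusted p = 0.557 by limma). Control 4 was thus the lowest control for Sema3a, Sema3c and Sema3g, and also for Sema3d, Nrp1, Plxnd1 and Plxnc1. Without controls 1 and 2 the log2 fold changes were -0.05 for Sema3c, -0.20 for Sema3g and -0.25 for Plxnc1, none of them called. Endothelial transcripts were likewise highest in controls 1 and 2 and lowest in control 4 of that group. The 10 genes summed to 5730, 5654, 5136 and 4849 in controls 1 to 4 and to 4198 to 5405 in mutants. Of these 10 genes 9 had negative and 1 a positive log2 fold change, with a median of -0.14, none was called and none was at 0. Among the controls, muscle, stroma, ureteric bud, podocyte and early nephron, liver and adrenal cortex transcripts were also lowest in control 4. Nephron progenitor and neuronal transcripts were highest in control 4, and glia and neural crest transcripts were lowest in control 3. Macrophage transcripts summed over 9 genes to 619, 806, 590 and 481 in controls 1 to 4 and to 344 to 587 in mutants. All 9 macrophage genes had negative log2 fold changes, with a median of -0.43, none was called and none was at 0 in any library. The part of any of these tissues or cell types in these differences was not tested.

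Of the remaining class 3 genes, Sema3f, the neuropilin 2 ligand, had a log2 fold change of 0.12 (966 ± 61.5 and 1047 ± 72.2, SD, n = 4 each, adjusted p = 0.637 by limma). Sema3b, a relative of Sema3f next to it on chromosome 9, was at 145 ± 15.4 and 145 ± 22.1, with an interval of the log2 fold change from -0.28 to 0.26. Sema3e, the Plxnd1 ligand, was low, at 35.7 to 66.2 in controls and 39.2 to 62.3 in mutants. Its interval from -0.24 to 0.71 does not exclude a sizeable increase or a smaller decrease. Position sets several class 3 genes together. Sema3d (12383161 to 12588953), Sema3a, Sema3e and Sema3c lie in that order on chromosome 5 of GRCm38, with gaps of 0.54, 0.42 and 3.32 Mb. Within this group the log2 fold changes were -0.36, -0.47, 0.23 and -0.16.

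**Figure D3:**
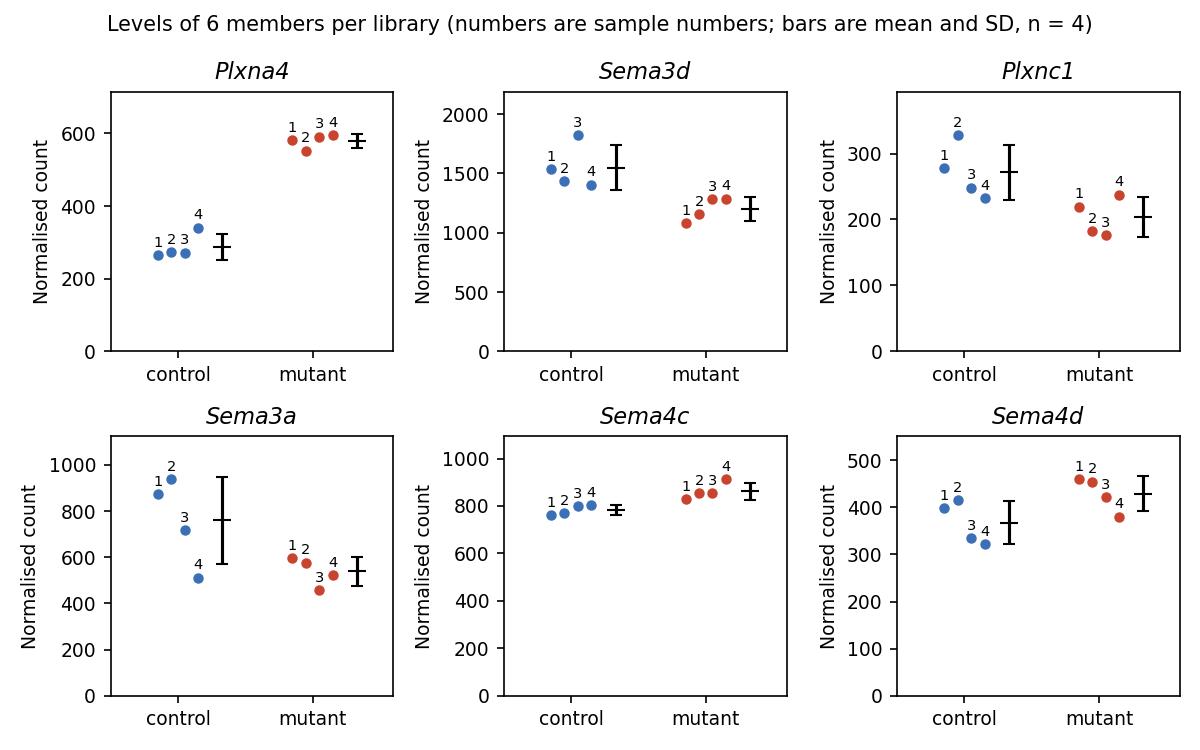
Dots are normalised counts of 6 members per library, numbered by sample and on axes that start at 0, with the mean and SD of each group beside them (n = 4). Mutants stand above controls for Plxna4 (553 to 595 against 265 to 340.3) and Sema4c (829 to 912 against 761 to 805). They stand below controls for Sema3d (1080.01 to 1287 against 1407 to 1822), while Plxnc1, Sema3a and Sema4d overlap.

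The 6 class 4 semaphorins, membrane ligands that mostly signal through B-type plexins, all had positive fold changes, from 0.06 for Sema4b to 0.23 for Sema4d, and none was called. Directions held under the scaling alternatives, but those of Sema4a (-0.055) and Sema4b (-0.0023) changed without control 4 and that of Sema4g (-0.0046) without controls 1 and 2. Sema4c, a Plxnb2 ligand, was at 761, 771, 799 and 805 in controls 1 to 4 and at 829, 853, 854 and 912 in mutants 1 to 4. Groups did not overlap, yet they came within 805 and 829 of each other, and the log2 fold change was 0.14 (SE 0.043, adjusted p = 0.292 by limma). Sema4d, the Plxnb1 ligand, was at 399, 416, 335 and 322 in controls 1 to 4 and at 459, 455, 422 and 380.2 in mutants 1 to 4. Mutant 4 lay below controls 1 and 2 (log2 fold change 0.23, SE 0.093, adjusted p = 0.492 by limma). Values without controls 1 and 2 were larger for Sema4d, with a log2 fold change of 0.38 (adjusted p = 0.152 by limma).

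Classes 5, 6 and 7 showed no call. Sema5a, which carries thrombospondin repeats and binds Plxnb3, was at 1886 ± 176 and 1996 ± 128, with an interval of the log2 fold change from -0.06 to 0.23. Its relative Sema5b was at 79.5 ± 4.95 and 80.6 ± 21.2. All 4 class 6 genes had negative fold changes, from -0.18 for Sema6c to -0.10 for Sema6d, and the sign of Sema6b was positive (0.14) without controls 1 and 2. Sema6a, a ligand of Plxna2 and Plxna4, was at 745, 828, 890.3 and 902 in controls 1 to 4 and at 763, 785, 761 and 808 in mutants 1 to 4. Groups overlapped through control 1 (log2 fold change -0.11, interval -0.24 to 0.02, adjusted p = 0.701 by limma). Sema6d, a Plxna1 ligand, was at 425 ± 17.6 and 396 ± 20.3 (interval -0.23 to 0.03). Sema7a, the Plxnc1 ligand, had a log2 fold change of -0.22 (interval -0.56 to 0.12), the same sign as its receptor. Precision differed among members: the 95% interval lay inside -0.5 to 0.5 for 22 of the 30, and it was widest for Sema3e, at 35 to 64 reads per library.

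Ordered by control level per kb of exon sequence, Plxnb2 (521 ± 18.4) and Plxnd1 (388 ± 26.1) led, and did not overlap each other. Sema3c (293 ± 31.2) and Nrp1 (277 ± 10.9) followed, and their libraries overlapped. Plxna1 (238 ± 8.71) and Sema3f (186 ± 11.8) came next. In this order Plxna4 was 25 of 31 in controls, at 20.4 ± 2.50 per kb, and 16 of 31 in mutants, at 41.1 ± 1.36 per kb. Plxnb3 was last in both groups. Sema3a went from 13 to 17 and Plxnc1 from 19 to 23 in the same order, without a called change.

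**Figure D4:**
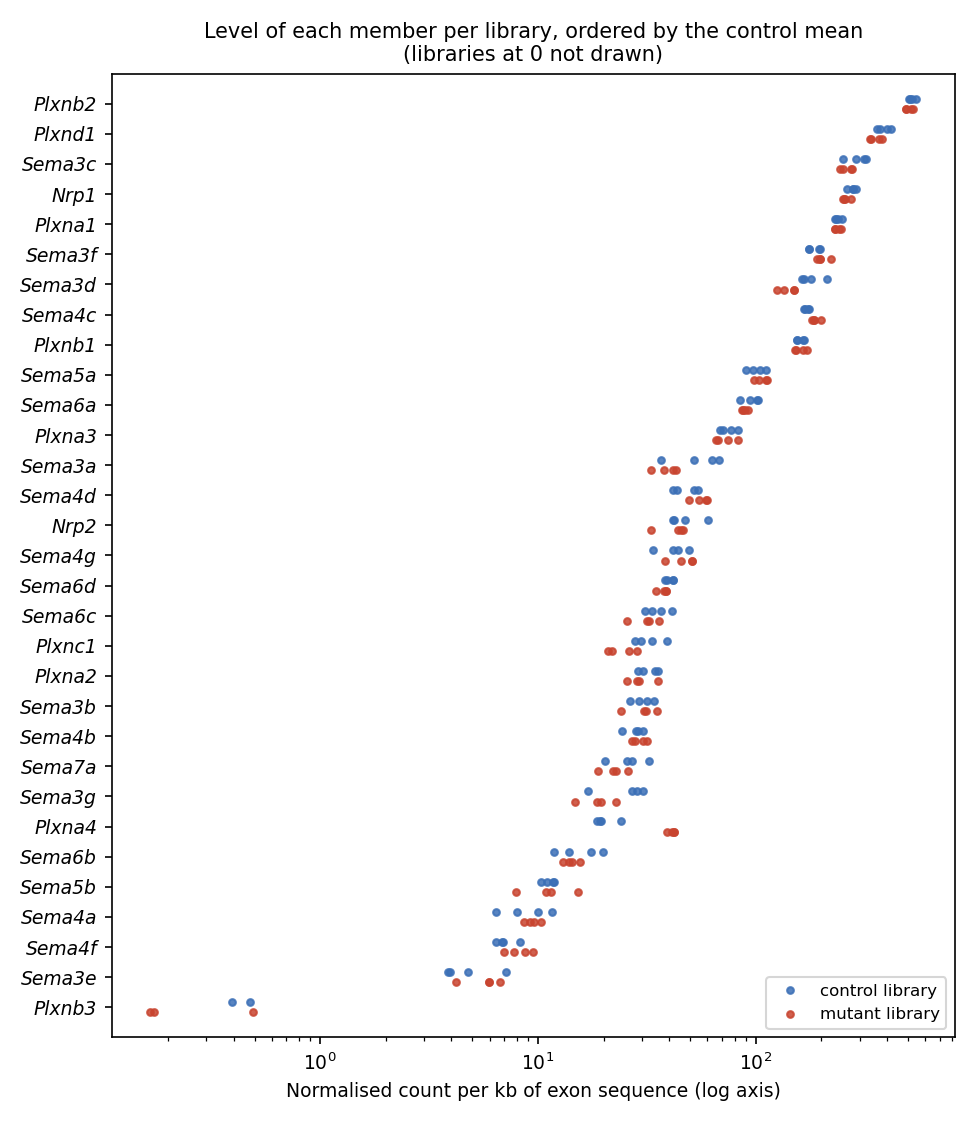
Each dot is the normalised count per kb of exon sequence in a library, on a log axis, for the 31 members ordered by the control mean. Control and mutant dots interleave for most members, and those of Plxna4 lie apart, near 20.4 per kb in controls and 41.1 per kb in mutants.

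Genes that act with the system were read from 3 further lists. Of 14 tested co-receptors and other partners, 1 was higher and none lower, with a median log2 fold change of 0.02. Over all genes tested 0.124% were called higher. The called gene was Met, the hepatocyte growth factor receptor that associates with B-type plexins, at 817 ± 44.8 and 1050.4 ± 55.5 (SD, n = 4 each, log2 fold change 0.36, SE 0.052, adjusted p = 0.0130 by limma). Met lost its call without mutant 2 (adjusted p = 0.0506), without mutant 3 (0.0533), without controls 1 and 2 (0.0756) and without control 2 and mutant 2 (0.135). Chl1, an adhesion molecule that joins neuropilin 1 in the response to Sema3a, had a log2 fold change of -1.48 with overlapping groups (166 ± 71.96 and 61.3 ± 32.5, adjusted p = 0.162 by limma). Lrp1, an endocytic receptor, had one of -0.18 (adjusted p = 0.476 by limma).

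Downstream of the plexins, none of 37 tested effectors was called by limma, with a median log2 fold change of -0.03. Unadjusted p-values by limma were under 0.05 for 2 of the 37, where 8.70% of all genes tested did so. The lowest p belonged to Rnd3, an atypical small G protein without GTPase activity, whose groups did not overlap (907 ± 39.1 and 758 ± 67.3, log2 fold change -0.26, adjusted p = 0.111 by limma). DESeq2 on the recovered reads called Rnd3 lower (adjusted p = 0.0218), as did limma without mutant 4 (adjusted p = 0.0207). Rap1b, a small GTPase, had a log2 fold change of -0.11 and Mras, a relative of Ras, one of -0.18. Among 8 vascular growth factors and receptors that share neuropilins none was called, with a median of -0.07. Figf (now Vegfd) and Vegfb, both ligands, had all mutants below all controls, with log2 fold changes of -0.35 (198 ± 20.4 and 155 ± 9.15, adjusted p = 0.164 by limma) and -0.22 (adjusted p = 0.426 by limma). Kdr, the receptor VEGFR2, had one of -0.08 (adjusted p = 0.805 by limma). Groups did not overlap for 5.31% of all genes tested, as they did not for Rnd3, Figf and Vegfb.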

How the data were processed

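The labels' protocols describe poly(A)-selected RNA, 500 ng per library, and an Illumina TruSeq kit. The submitters' processing notes name TopHat2 2.0.12, HTSeq, DESeq2 1.4.5 and the build mm10 (GRCm38). The annotation (not given in the sources used here) is unknown. In the deposited signal values, the reads of each gene were divided by a size factor of the library. All were whole multiples of the library's smallest value (tolerance 0.01), so whole reads were recovered. The authors also deposited group means, the ratio of these means (a fold change) with its log2, and p-values before and after adjustment.

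Log2(normalised count + 1) was fitted in R 4.3.3 with limma 3.58.1 (trended prior, genotype only, two-sided). Alternatives used edgeR 4.0.16 (quasi-likelihood) and DESeq2 1.42.0 on recovered reads, other pseudocounts (0.5 and 5), filters and scaling, the sample number as a block, and fewer libraries. Members and lists were chosen with earlier results of these data known. Full statistics were given for called members and the 10 lowest unadjusted p, and up to 3 lowest p per partner list. Exon lengths and overlaps came from GENCODE vM21, positions from RefSeq GRCm38.p6. No member's exons overlapped a tested gene. The neuronal marker list is given without 1 gene, which is not reported here.

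The fit was tested on simulated mutant and control counts of the 13692 genes. It recovered 36.0% of 50 genes simulated with a 1.25-fold change, 64.0% of those with 1.5-fold, 80.0% with 2-fold and 98.0% with 4-fold, and 11 of 150 calls were false. No pair of libraries in a group was the same library sequenced again (chi-square per degree of freedom 2.89 to 10.98). Separate libraries made from the same RNA cannot be recognised in this way. Figures used matplotlib 3.10.9 in Python 3.11.15.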

Additional observations from a re-analysis of the deposited data

Results flagged for a closer look

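Plxna4 in control 4 was 340.3 normalised counts, far from the other 3 controls at 265 to 274. The gap took up most of the range of the 4 controls. Its fold change was larger without control 4, at 1.10 on the log2 scale. Of 62 groups of 4 values examined in this way, 1 stood out, where chance gives about 3.1.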

How the results depend on the processing

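Plxna4 was called in all 18 alternatives, and Smo too. Of the 30 tested members 20 kept their sign in every alternative run and 10 did not. All genes called higher and lower numbered 17 and 61, and DESeq2 called 54 and 160. The sample number as a replicate block gave 62 and 170, with members called lower at 1 (Sema3d, adjusted p = 0.0166) and partner genes called lower at 2 (Chl1, adjusted p = 0.00086, and Rnd3). In their deviations from the group means, samples numbered 1, 2 and 3 correlated best with their own number (0.29 to 0.32), while the samples numbered 4 correlated at 0.06 and control 4 best with mutant 3 (0.15). This hints at a pairing for 3 of the 4 numbers and does not establish it, and the labels do not give any. In the exact sign-flip test over the 4 numbered pairs the block left the Plxna4 ratio at 1.04 (p = 0.125, the smallest possible). DESeq2 called 1 member lower (Sema3d) and 1 partner gene lower (Rnd3). Without controls 1 and 2 the counts were 6 and 23, and 1 and 1 without control 2 and mutant 2, with partner genes called higher at 0 in both. Leaving out 1 library gave 3 to 55 genes higher and 13 to 130 lower, 0 to 2 members lower (2 without control 4, Sema3a and Sema3d), 0 to 1 partner genes higher, 0 to 1 partner genes lower, and a Plxna4 ratio of 1.01 to 1.10 (exact permutation p = 0.0571, the smallest that 7 libraries allow). Sign changes outside single left-out libraries were Sema5b under edgeR (0.018) and DESeq2 (0.019), Plxnb1 without controls 1 and 2 (-0.0019) and without control 2 and mutant 2 (-0.025), and, without controls 1 and 2, Nrp2 (0.0016), Sema3b (0.11), Sema4g (-0.0046) and Sema6b (0.14). With 1 library left out, ranges that crossed 0 were -0.022 to 0.020 for Plxna1, -0.11 to 0.0072 for Plxna3, -0.032 to 0.030 for Plxnb1, -0.084 to 0.098 for Sema3b, -0.055 to 0.22 for Sema4a, -0.0023 to 0.11 for Sema4b and -0.16 to 0.15 for Sema5b. The cause of these changes was not tested. Sema3e, Sema4a and Sema4f have 33 to 74 reads per library, which limits what could be detected.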

Other observations

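Promoter windows of RefSeq GRCm38.p6, each 300 bases long, were given for 26 of the 31 members (37 windows), with none for Plxna1, Plxna4, Sema3b, Sema3f and Sema6a. The letters TGGGTGGTC, a consensus bound by GLI factors of the hedgehog pathway, were searched on both strands. None of the 37 windows held them, against 83 of 32851 windows of all genes (0.253%), which says only that these letters are not in these windows.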
